A study of Mus musculus with 6 samples.

Results

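The interferon-inducible GTPases described here are 10 mouse genes of 2 related groups, the guanylate-binding proteins (GBPs) Gbp2, Gbp3, Gbp4, Gbp6, Gbp7 and Gbp9 and the immunity-related GTPases (IRGs) Igtp, Irgm1, Irgm2 and Ifi47. They were chosen by gene symbol from the deposited array table, in which 19937 genes have a row paired with that gene alone. Of the 10 members, 5 have such a row (Gbp3, Gbp4, Gbp7, Gbp9 and Irgm1). The other 5 lie on rows that the platform's annotation pairs with several genes. Gbp2 shares a row with Gbp2b, Igtp shares a row with Irgm2, Ifi47 shares a row with the olfactory receptor gene Olfr56, and Gbp6 is among 6 Gbp genes on a single row (Gbp4, Gbp6, Gbp8, Gbp9, Gbp10 and Gbp11). The members are thus read from 9 rows, all of which passed the filter on low values. A value of a shared row is given for the row and is not assigned to any of its genes.

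The study transferred total T cells of wild-type mice into recipients without T cells of their own and asked what regulatory T cells (Tregs) express when they cannot meet MHC class II, the molecule that presents peptides to the T cell receptor of CD4+ cells. Both kinds of recipient lacked CD3ε. The MHC II-competent recipients carried the CD3ε deficiency alone, and the MHC II-deficient recipients were deficient in CD3ε and MHC II. After 5 days CD4+ TCRβ+ CD25+ cells were enriched on magnetic beads and sorted, with 3 arrays per group labelled as biological replicates, called competent 1 to 3 and deficient 1 to 3 below. The labels give the strain C57BL/6, an age of 6 to 8 weeks, and peripheral lymph nodes and spleen as the origin, for both groups. They do not say whether an array holds cells of 1 recipient or of several, and the tests below rest on the spread among the preparations as they are. Each array was prepared from 100 ng of total RNA. Expression of Foxp3, the lineage factor of Tregs, stood at 9.77 ± 0.09 in the MHC II-deficient and 9.82 ± 0.05 in the MHC II-competent group (log2 values, SD, n = 3). None of the 7 Treg and CD4 T cell markers tested passed the threshold of limma's test (0 of 7, with 3 at an unadjusted p under 0.05, all 3 lower). All 7 differences were negative, with a median of -0.08 on the log2 scale. For 3 of the 7 all deficient arrays lay below all competent arrays (12.9% of all genes did).

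GBPs and IRGs are GTPases that cells make in large amounts after exposure to interferons, above all interferon-gamma. GBPs are large GTPases related to dynamin that assemble on the membranes of vacuoles holding pathogens and on cytosolic bacteria. IRGs fall into effectors, which attack such vacuoles, and the regulators Irgm1, Irgm2 and Igtp (Irgm3), which hold the effectors inactive on the cell's own membranes. The genes lie in clusters, the GBPs on chromosomes 3 and 5 and the member IRGs on chromosome 11. Their transcription is driven through 2 kinds of promoter element, the interferon-stimulated response element (ISRE), bound by complexes of STAT proteins with IRF9 and by other IRF proteins, and the gamma-activated sequence (GAS), bound by STAT dimers. No sample of the series received added interferon.

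Promoter windows of RefSeq (build GRCm38.p6, 250 bases before to 50 after each annotated start) were used for 7 of the 10 members (not Gbp4, Gbp6 and Gbp9), and the 150 bases before the start are shown for the 6 in which an ISRE core was found, since they let a reader see where the elements lie. Capitals mark matches to the ISRE core (GAAANNGAAA, or TTTCNNTTTC on the other strand) and to the GAS element (TTCNNNGAA, the same on both strands), each stretch is written 5′ to 3′ along its gene, and matches of a motif may overlap. The stretches lie at chr3:142620513-142620662 (+ strand) for Gbp2, chr3:142559894-142560043 (+ strand) for the first of 2 annotated starts of Gbp3, and chr3:142530186-142530335 (+ strand) for Gbp7. Those of the IRG genes lie at chr11:58199406-58199555 (+ strand) for Igtp, chr11:58214827-58214976 (+ strand) for Irgm2 and chr11:48871421-48871570 (- strand) for Irgm1.
Gbp2: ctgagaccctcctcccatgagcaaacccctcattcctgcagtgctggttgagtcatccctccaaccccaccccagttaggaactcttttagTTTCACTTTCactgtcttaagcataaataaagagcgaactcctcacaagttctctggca
Gbp3: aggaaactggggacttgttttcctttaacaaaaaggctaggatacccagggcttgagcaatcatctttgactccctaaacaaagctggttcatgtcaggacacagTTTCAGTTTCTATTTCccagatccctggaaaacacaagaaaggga
Gbp7: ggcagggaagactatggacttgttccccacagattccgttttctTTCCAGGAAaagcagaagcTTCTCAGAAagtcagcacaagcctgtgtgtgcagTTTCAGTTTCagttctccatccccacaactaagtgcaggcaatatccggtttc
Igtp: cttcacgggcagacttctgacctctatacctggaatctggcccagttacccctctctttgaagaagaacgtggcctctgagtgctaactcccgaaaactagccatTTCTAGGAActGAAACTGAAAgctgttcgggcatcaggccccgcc
Irgm2: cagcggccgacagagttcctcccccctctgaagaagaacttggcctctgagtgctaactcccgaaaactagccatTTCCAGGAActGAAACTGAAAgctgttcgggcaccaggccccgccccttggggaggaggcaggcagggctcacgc
Irgm1: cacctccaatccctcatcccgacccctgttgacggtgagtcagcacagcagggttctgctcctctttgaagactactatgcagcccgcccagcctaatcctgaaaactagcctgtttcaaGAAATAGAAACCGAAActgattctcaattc
An ISRE core lay in the window of 6 of these 7 members, against 3.99% of the 27025 genes with a window, and a GAS element in that of 3, against 9.55% of genes. The ISRE cores of all 6 began between 64 and 24 bases before the start. In Gbp3 and Irgm1 a pair of overlapping cores was found, and no GAS element. In Igtp and Irgm2 a GAS element stood 2 bases before an ISRE core, and over 85 bases around the ISRE core the 2 windows were identical at 81. Of all 27025 genes 5 held that arrangement (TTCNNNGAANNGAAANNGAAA, either strand, 0.0185%), and 4 of the 5 were GTPase genes of this family, namely Igtp, Irgm2, Tgtp1 and Tgtp2. The arrangement was defined by Igtp and Irgm2, so those 2 hits were fixed in advance. Tgtp1 and Tgtp2 are near-identical copies, so the 4 genes are not independent hits. The second start of Gbp3 and the window of Ifi47 held neither motif. A match is a run of letters and does not show that a factor binds there.

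**Figure D1:**
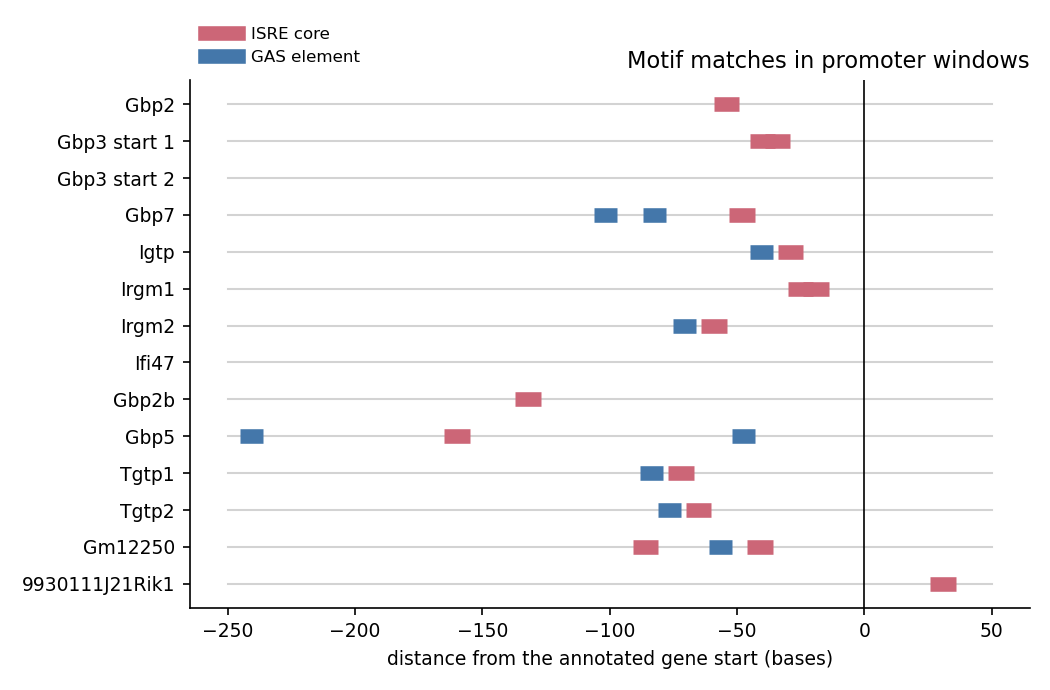
Matches to the ISRE core (red) and the GAS element (blue) in RefSeq promoter windows, drawn against the distance in bases from the annotated gene start (vertical line). The upper 8 windows belong to 7 member genes and the others to genes of the same family with a match; in 6 of the 7 members a red block lies within 64 bases before the start.

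The GTPase rows stood higher in Tregs from MHC II-deficient recipients, by no more than 2.0-fold. All 9 rows had a positive log2 difference, and the 3 deficient arrays lay above the 3 competent arrays for 8 of the 9, where the same was found for 11.4% of all genes and 11.5% of all rows. Among the 5 genes with a row of their own, Gbp4 and Gbp9 rose (2 of 5 at an adjusted p under 0.05 of limma's test over 15037 genes, of which 1.34% were called higher and 2.03% lower). Among the 4 shared rows, 3 rose in the fit over all 21075 rows past the filter (1.06% of rows were called higher), namely those of Gbp2 with Gbp2b, of the 6 Gbp genes, and of Irgm2 with Igtp. The median log2 difference was 0.76 over the 5 genes and 0.61 over the 4 shared rows, beside 0.02 over all genes tested. In bulk RNA, a change per cell and a change in the make-up of the sorted cells cannot be told apart.

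Gbp4 and Gbp9, neighbours in the chromosome 5 cluster, were the 2 genes that passed the test on rows of their own. Gbp9, whose product is recruited to vacuoles of intracellular parasites, stood at 9.80, 10.10 and 9.90 in competent 1 to 3 and at 11.0, 10.82 and 10.98 in deficient 1 to 3. Each deficient array thus lay above each competent array by more than the spread within either group. The log2 difference was 1.0 (SE 0.11, 95% interval 0.75 to 1.25), a 2.0-fold rise with an adjusted p of 0.00278 by limma. Gbp4 was read at 10.41, 10.63 and 10.49 in the competent arrays and at 11.36, 11.32 and 11.34 in the deficient arrays. The deficient arrays differed from each other by less than 0.1, and the difference from the competent mean was 0.83 (SE 0.10, 1.78-fold, limma adjusted p = 0.00317). Both calls held without each single array in turn, with differences between 0.78 and 1.08.

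The row shared by the 6 Gbp genes of the chromosome 5 cluster, the only one that carries Gbp6, rose as well. It was read at 10.86, 11.07 and 10.92 in the competent and at 11.74, 11.59 and 11.68 in the deficient arrays, with no overlap. The difference was 0.72 (SE 0.10, 1.64-fold, limma adjusted p = 0.012), and without deficient 1 the adjusted p was 0.0625. Since Gbp4 and Gbp9 are among its genes, this row does not show what Gbp6 did alone.

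On chromosome 3 the members differed more among themselves. The row of Gbp2 and Gbp2b, of which Gbp2 encodes a GTPase needed for control of Toxoplasma in mice, stood at 10.28, 10.24 and 9.92 in the competent and at 11.17, 11.0 and 11.15 in the deficient arrays. It rose by 0.96 (SE 0.12, 1.95-fold, limma adjusted p = 0.00867), and the call held without each single array. Gbp2b also has a row of its own, at 7.46 ± 0.22 in the competent and 8.17 ± 0.14 in the deficient group (SD, n = 3), and it rose there by 0.71 (SE 0.13, limma adjusted p = 0.023). Without competent 1, competent 2, deficient 1 or deficient 3 that call of Gbp2b ended, at adjusted p of 0.0703, 0.0938, 0.0837 and 0.0703.

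Gbp7 and Gbp3 did not pass. Gbp7, linked in mouse macrophages to the assembly of the oxidase that kills bacteria, stood at 10.50, 10.53 and 10.05 in the competent and at 11.07, 10.84 and 10.85 in the deficient arrays. The groups did not overlap, competent 3 lay well under the other competent arrays, and the difference of 0.56 (SE 0.14, 95% interval 0.24 to 0.88) had an adjusted p of 0.0672 by limma. Gbp3 was read at 8.91, 9.14 and 8.99 in the competent and at 9.43, 9.01 and 9.36 in the deficient arrays. Deficient 2 fell among the competent arrays, and the difference was 0.25 (SE 0.13, 95% interval -0.04 to 0.54, limma adjusted p = 0.336). The promoter of Gbp3 holds 2 overlapping ISRE cores and that of Gbp7 an ISRE core and 2 GAS elements. Whether the differences of 2 members differ from each other was not tested.

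Among the IRG members the regulators stood higher and the Ifi47 row differed least. The row of Irgm2 and Igtp was read at 11.28, 11.35 and 11.26 in the competent and at 11.79, 11.76 and 11.84 in the deficient arrays. The SD within a group was 0.05 or less, and the row rose by 0.50 (SE 0.09, 1.42-fold, limma adjusted p = 0.029). That call ended without any array but competent 3, at adjusted p of 0.0828 (without competent 1), 0.0698 (competent 2), 0.114 (deficient 1), 0.0958 (deficient 2) and 0.0943 (deficient 3), while the difference stayed between 0.48 and 0.53. Irgm1, which also acts in autophagy and in the survival of T cells after infection in mice, stood at 9.28, 9.38 and 8.62 in the competent and at 9.98, 9.73 and 9.85 in the deficient arrays. Competent 3 lay lowest by a wide margin. The difference was 0.76 (SE 0.18, 95% interval 0.34 to 1.17), with a limma adjusted p of 0.0601. Without competent 3 the difference of Irgm1 was smaller, 0.52, and passed with an adjusted p of 0.039. Ifi47 encodes an IRG effector (Irgd), and the row it shares with Olfr56 went from 9.36, 9.32 and 9.26 to 9.44, 9.52 and 9.54. The arrays did not overlap, but the difference was 0.18 (SE 0.09, 95% interval -0.02 to 0.38, limma adjusted p = 0.335).

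**Figure D2:**
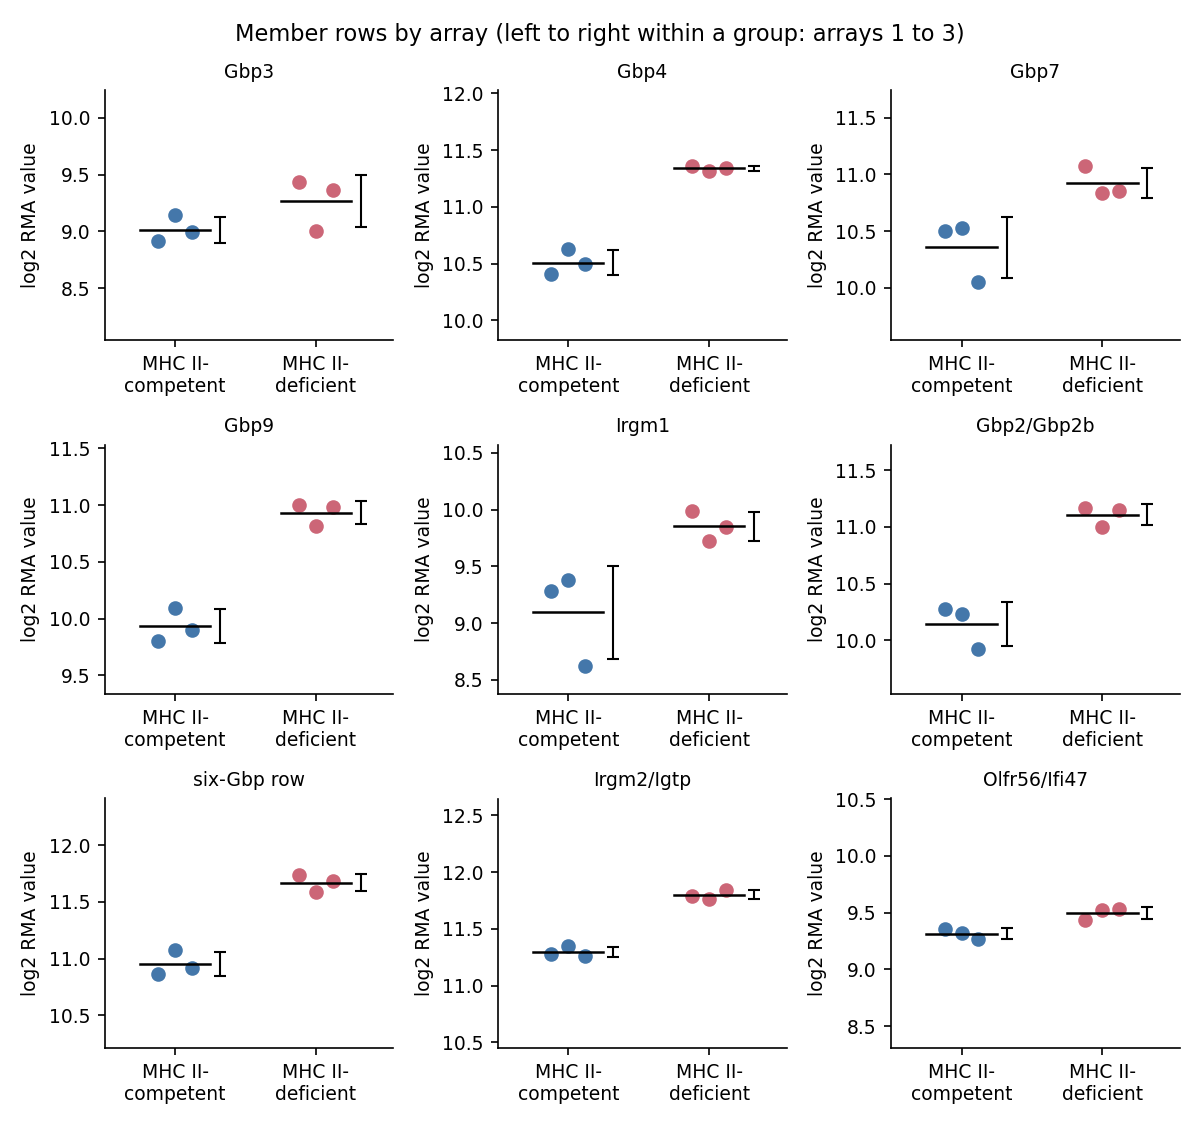
Log2 RMA values of the 9 member rows, 1 panel per row, each spanning 2.2 log2 units; points are arrays 1 to 3 of the MHC II-competent (blue) and MHC II-deficient (red) groups, lines are means, and bars are SD (n = 3). The red points lie above the blue points in 8 panels and overlap them for Gbp3; competent 3 is the lowest point for Gbp7, Irgm1 and the Gbp2/Gbp2b, Irgm2/Igtp and Olfr56/Ifi47 rows.

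Other genes of the family that are no members were mostly higher too. Of 10 such genes tested on rows of their own, 5 rose and 0 fell, with a median difference of 0.48. They were Gbp2b, Gbp5, a promoter of inflammasome assembly, Gbp8, Gbp11 and Gm12250, which encodes the effector Irgb10. Gm12250, whose product acts with GBPs on bacterial membranes, went from 10.31, 10.39 and 10.26 to 11.11, 11.01 and 11.02, a rise of 0.73 (SE 0.09, limma adjusted p = 0.00465) that held without each single array. Gbp11 rose by 0.95 (SE 0.17, limma adjusted p = 0.0208), Gbp8 by 0.74 (SE 0.12, limma adjusted p = 0.0155) and Gbp5 by 0.45 (SE 0.10, limma adjusted p = 0.0458). The call of Gbp8 ended without competent 2 (adjusted p = 0.061) or deficient 1 (0.0736). Gbp11 lost its call without competent 1 (0.0703), competent 2 (0.0827), deficient 1 (0.0879) or deficient 3 (0.0577), and Gbp5 without any array but competent 3 (0.0905 to 0.155).

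The IRG effector genes Tgtp1 and Tgtp2, near-identical copies that share 2 rows, gave the largest difference of the family. The first row rose from 8.94, 9.36 and 9.25 to 10.70, 10.62 and 10.85, by 1.54 (SE 0.13, 2.90-fold, limma adjusted p = 0.00139), a call that no single left-out array ended. The other row, read at 11.28, 11.48 and 11.10 in the competent and at 11.96, 11.95 and 11.91 in the deficient arrays, rose by 0.65 (SE 0.11, limma adjusted p = 0.0289), so that the 2 rows of the same pair of genes disagreed in size (95% intervals 1.24 to 1.83 and 0.40 to 0.91). The call of the second row ended without competent 1 (0.082), deficient 1 (0.113), deficient 2 (0.1) or deficient 3 (0.0747). The row of 9930111J21Rik1 and 9930111J21Rik2 rose by 0.53 (SE 0.09, limma adjusted p = 0.0315), a call that was lost without any array but competent 3 (0.0698 to 0.132). Iigp1, the effector Irga6, stood at a difference of 0.34 (SE 0.12, limma adjusted p = 0.16) and Gm4951 at 0.51 (SE 0.16, adjusted p = 0.122). Gm4841 was the 1 tested family gene whose deficient arrays all lay lower (12.9% of all genes did), at -0.35 (SE 0.11, adjusted p = 0.14, not past the threshold). Irgc1 (0.11), Irgq (-0.12) and 2 tested rows that hold Gvin1, a very large inducible GTPase (0.31 and 0.10), did not pass either, and another Gvin1 row was under the filter.

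The size of these differences was set beside genes that interferon-gamma typically induces and genes typical of type I interferon, although many genes of either list respond to both. Of 17 tested genes of the interferon-gamma list, 3 rose and 0 fell, with a median difference of 0.23. They were the chemokine gene Cxcl10 (1.39, SE 0.15, limma adjusted p = 0.00281), Cd274, which encodes PD-L1 (0.92, SE 0.16, adjusted p = 0.0195), and the transcription factor gene Irf1 (0.76, SE 0.12, adjusted p = 0.0102). In the list 14 of 17 differences were positive and 3 negative, with 5 genes at an unadjusted limma p under 0.05. For 7 of the 17 all deficient arrays lay above all competent arrays, and for 0 all lay below (11.4% and 12.9% of all genes). The MHC class II transactivator gene Ciita stood at 0.02 (adjusted p = 0.932), Psmb8, an immunoproteasome gene, at 0.08 (adjusted p = 0.714) and Cxcl9, a chemokine gene, at 0.28 (adjusted p = 0.494), all 3 chosen after their values were seen. Of 18 tested genes of the type I list, 17 rose, and the median difference was 1.33. The 4 with the smallest p were Oasl2 (2.32), Irf7 (1.78), Ifit1 (1.45) and Stat2 (1.26), and the 1 that did not pass was Irf9 (0.41, SE 0.14, adjusted p = 0.145). The median of the 9 GTPase rows, 0.72, thus lay between those of the 2 lists, which is a description and was not tested. The sets stood at unlike levels, with mean log2 values of 10.08, 10.20 and 9.94 for the GTPase rows in competent 1 to 3. In the same arrays the means were 7.90, 7.82 and 7.78 for the interferon-gamma list and 7.79, 7.84 and 7.95 for the type I list. In the promoter windows an ISRE core was found in 7 of 15 genes of the type I list and 2 of 14 of the interferon-gamma list, and a GAS element in 2 and 6.

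**Figure D3:**
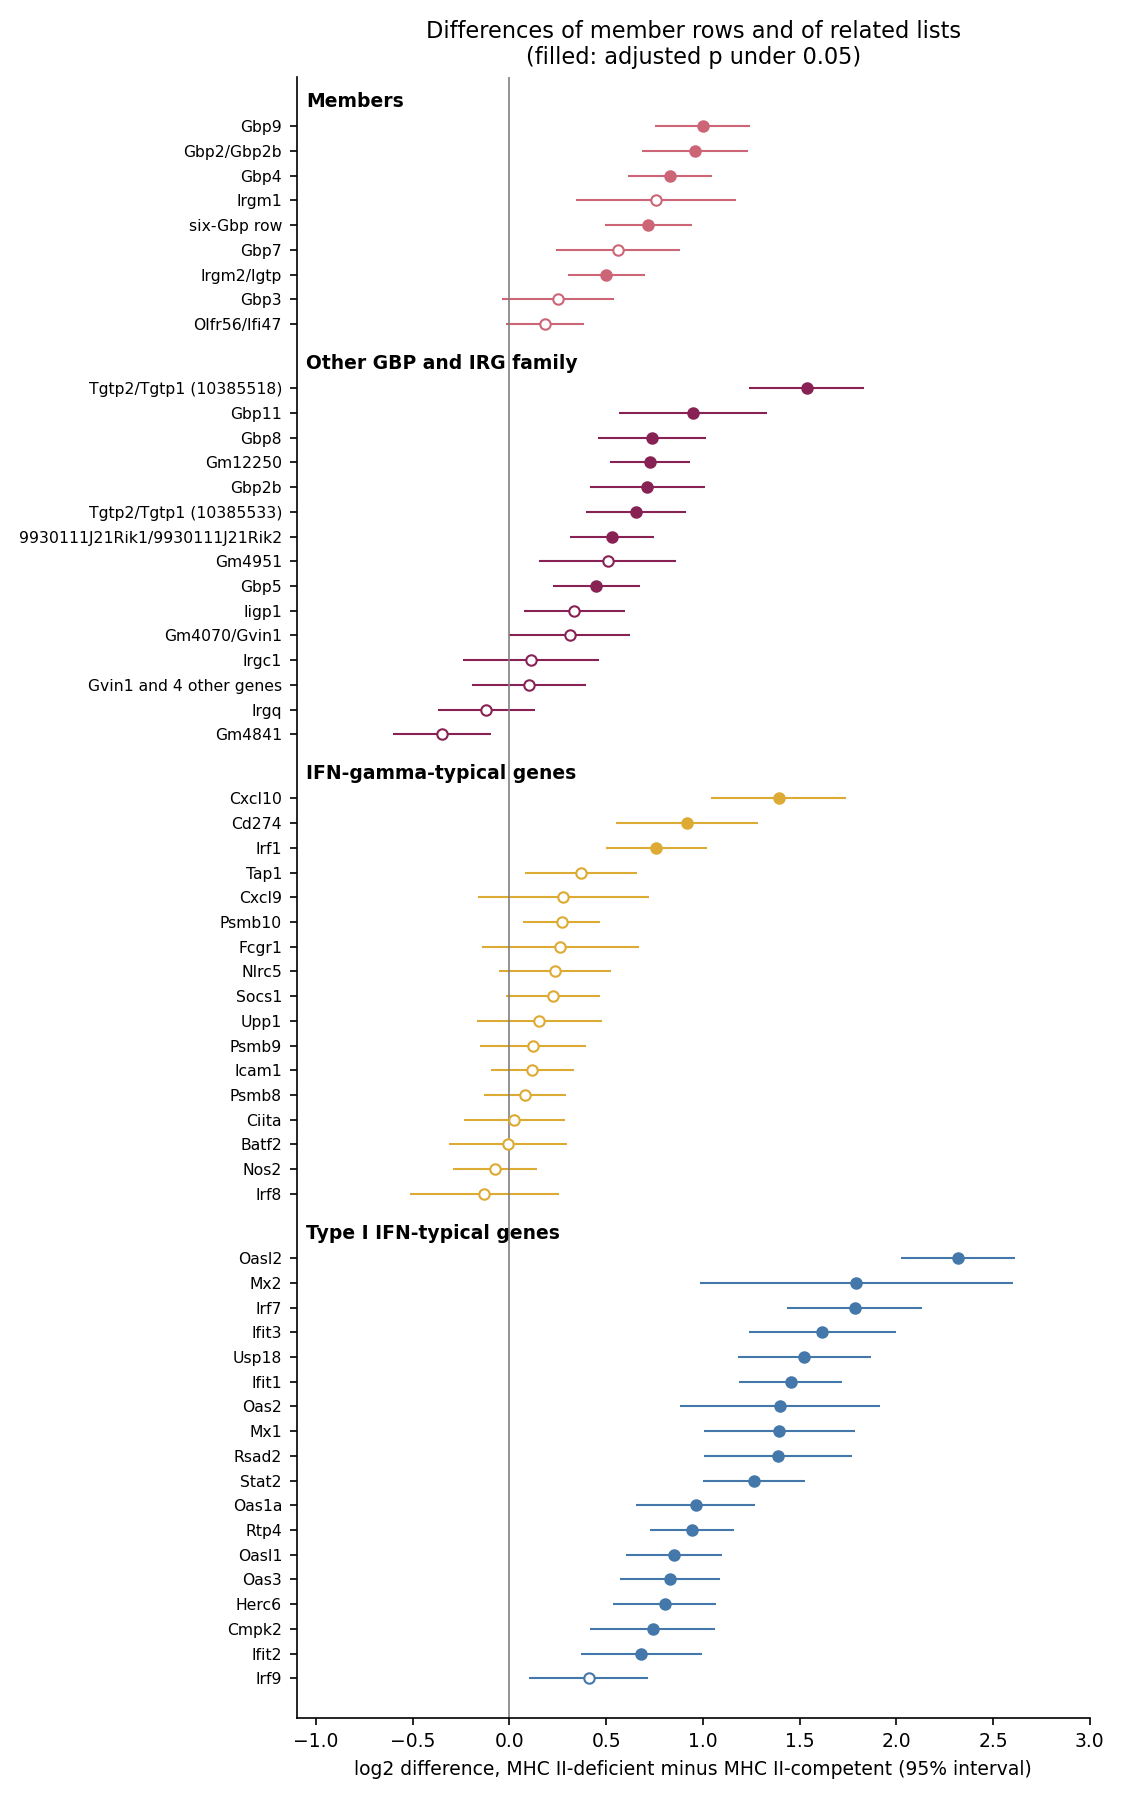
Log2 differences, MHC II-deficient minus MHC II-competent, with 95% intervals from limma (3 arrays per group) for the member rows, the other family rows, and tested genes of the interferon-gamma and type I interferon lists; filled points have an adjusted p under 0.05. Member rows lie between 0.18 and 1.0, the interferon-gamma list genes other than the 3 called between -0.13 and 0.37, and the type I list genes between 0.41 and 2.32.

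Genes that carry the interferon signal gave no call. Of 8 tested genes for interferon-gamma, the interferon receptors and their kinases, 0 passed limma's test, while 4 had an unadjusted p under 0.05 (Ifng, Ifngr1, Ifngr2 and Ifnar1). Ifng itself stood at 7.17 ± 0.40 in the competent and 6.76 ± 0.08 in the deficient group (SD, n = 3), a difference of -0.41 (SE 0.18, 95% interval -0.81 to -0.01, limma adjusted p = 0.248). The receptor genes Ifngr1 (0.33, SE 0.14), Ifngr2 (0.40, SE 0.11), Ifnar1 (0.25, SE 0.10) and Ifnar2 (-0.09, SE 0.13) had adjusted p of 0.223, 0.0825, 0.205 and 0.759, and 1 of the 8 genes, Ifngr2, passed with quantile normalization. The kinase genes stood at 0.06 (Jak1), 0.00 (Jak2) and -0.15 (Tyk2), with adjusted p of 0.787, 0.997 and 0.468.

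Listed partners of the GTPases, and listed relatives outside the GBP, IRG and Mx families, gave no calls in the same fit. Mx1 and Mx2, also dynamin superfamily GTPases, were placed in the type I list and were among its 17 genes called higher. None of 13 genes of LC3 conjugation and ubiquitin tagging, which guide GBPs and IRGs to their target membranes, passed limma's test (0 of 13, median -0.07, 1 at an unadjusted p under 0.05). That 1 gene was Trim21, named after its value was seen, at 0.49 (SE 0.11, adjusted p = 0.0517), which passed under 5 of the alternatives, among them quantile normalization. No call was made among 4 genes of inflammasomes that GBPs engage (0 of 4, median -0.03, 0 at an unadjusted p under 0.05), 10 other GTPases of the dynamin superfamily (0 of 10, median -0.21, 5 at an unadjusted p under 0.05) and the 8 GIMAP GTPases, which support lymphocyte survival (0 of 8, median 0.09, 3 at an unadjusted p under 0.05). Of the 10 dynamin superfamily genes, 6 had all deficient arrays below all competent arrays (12.9% of all genes did). For 1 of the 10 they all lay above (11.4% of all genes). Among all tested genes, the 5 non-member genes whose values over the 6 arrays, centred on their own mean, lay nearest to the mean profile of the 5 own-row members were Ddx58, Zfp281, Rnf157, Gm10684 and Pml. Their root mean square distance from that profile was 0.047 to 0.064 log2 units, where the members themselves stood at 0.11 (Gbp7) to 0.24 (Gbp3). All 5 had differences between 0.64 and 0.74 on the log2 scale. Since they were chosen by nearest profile, short distances and differences near the members' mean were fixed in advance.

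Markers of macrophages, cells that also express GBPs and IRGs, moved with the group, and their part in the GTPase differences was not tested beyond the values here. Of 16 tested markers, 15 had a positive difference, with a median of 0.90, 14 had an unadjusted p under 0.05, and 1 passed the threshold (Adgre1, which encodes a surface antigen of macrophages, 1.39, SE 0.29, limma adjusted p = 0.0346). The count of markers called higher was 3 without deficient 3, 0 without any other single array, and 10 with the replicate number as a block. Their mean log2 value was 6.44, 6.76 and 5.86 in competent 1 to 3 and 7.63, 7.28 and 6.72 in deficient 1 to 3, so that the groups overlapped. Competent 3, the lowest array for these markers, was also the lowest for 5 of the 9 member rows (Gbp7, Irgm1 and the Gbp2/Gbp2b, Irgm2/Igtp and Ifi47 rows). Gbp3, Gbp4, Gbp9 and the row of the 6 Gbp genes were lowest in competent 1. Within the deficient group the markers were lowest in deficient 3. There all member rows but the Ifi47 row were lowest in deficient 2, and the Ifi47 row in deficient 1. The share over all genes was not counted. Competent 2 and deficient 3 were the pair of arrays nearest to each other in macrophage markers (6.76 and 6.72), and between these 2 single arrays, which give no measure of spread, the 9 member rows differed by 0.22 (Gbp3 and the Ifi47 row) to 0.91 (the Gbp2/Gbp2b row), with Gbp9 at 0.89, Gbp4 at 0.71, Irgm1 at 0.46 and Gbp7 at 0.32. With the marker mean as a covariate, 0 of the 9 member rows passed limma's test (5 at an unadjusted p under 0.05) with 3 residual degrees of freedom. Their median difference went from 0.72 to 0.49 and their median SE from 0.11 to 0.17. The differences were then 0.93 for Gbp9 (SE 0.17, limma adjusted p = 0.0634) and 0.78 for Gbp4 (SE 0.15, adjusted p = 0.0775). Those of Gbp7 (0.23, SE 0.17) and Irgm1 (0.33, SE 0.22) were smaller than without the covariate (0.56 and 0.76). Across the whole family 1 row stayed past the threshold, the first Tgtp row (1.6, SE 0.21, adjusted p = 0.0413). Of the other lists, 0 of 4 dendritic cell markers tested (0 also at an unadjusted p under 0.05), 1 of 4 B cell markers (Cd22, 1.32; 3 at an unadjusted p under 0.05) and 1 of 6 CD8 T and NK cell markers (Klrd1, 2.66; 4 at an unadjusted p under 0.05) were called higher. The differences were positive for 3 of the 4 B cell markers and 5 of the 6 CD8 T and NK cell markers. The remaining B cell marker stood at -0.39, with all deficient arrays below all competent arrays.

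**Figure D4:**
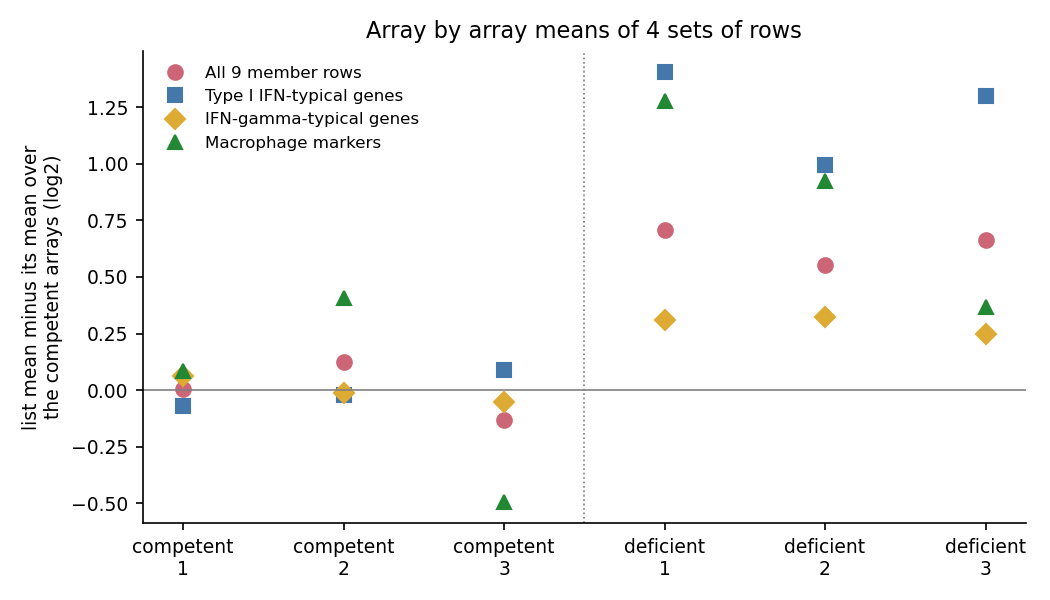
Mean log2 value in each array of the 9 member rows, the type I interferon list, the interferon-gamma list and the macrophage markers, each minus its mean over the 3 MHC II-competent arrays. The member rows lie between 0.55 and 0.71 in the deficient arrays, while the macrophage markers spread from 0.37 to 1.28 there and overlap with competent 2.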

How the data were processed

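RNA of 6 sorted samples was hybridised to Affymetrix whole-transcript arrays. The deposited table holds log2 values that the authors made with affy and RMA, per the submitters' processing notes; versions and build are not given in the sources used here, and the log base was taken as 2 from the range of the values (2.40 to 13.3). The number of arrays limits the precision.

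Rows were named through the platform annotation, with symbols updated by identifier from RefSeq (GRCm38.p6). Of 28101 rows, 21640 carry 1 symbol, 1321 several and 5140 none. A gene is its row with the highest mean, and genes under a mean of 5.205 (25th percentile) were left out. The comparison, MHC II-deficient minus MHC II-competent, was fitted with limma 3.58.1 in R 4.3.3 (lmFit, eBayes, two-sided, 3 against 3 arrays, no covariate) over all 15037 genes, with Benjamini-Hochberg adjustment and a threshold of 0.05. Rows with several symbols were tested in a second fit over all 21075 rows past a mean of 4.999, added after the data were seen. The fit was also tested on data simulated with the means and spreads of these genes. Group values are means ± SD and errors of differences limma's SE.

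The members and lists were chosen with earlier results of these data known. Named are all members, family genes with a row, up to 4 called genes by smallest p of each other list, a fixed set of signalling and marker genes whatever their values (Irf9 and Foxp3 among them) and the 5 genes of nearest profile; Ciita, Psmb8, Cxcl9 and Trim21 were named after their values were seen. Some list genes are not analysed here. The alternatives were other filters, normalizations, priors and row choices, array weights, a replicate block, a macrophage covariate and each array left out.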

Additional observations from a re-analysis of the deposited data

How the results depend on the processing

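Every member row kept a positive difference under each alternative. The count of own-row members called higher, 2, was 4 with quantile normalization, with the trended robust prior and with the replicate block. It was 3 with array weights, 0 with the macrophage marker score as a covariate, and 2 to 3 with an array left out. Gbp7 and Irgm1 were the 2 genes gained where the count was 4 (limma adjusted p of 0.0344 and 0.0389 with quantile normalization). With array weights Irgm1 alone was gained (limma adjusted p = 0.0391). The shared member rows called, 3, were 0 with the macrophage score and 1 to 3 with an array left out, and the Irgm2/Igtp row was also lost with median centring (0.0599) and the block (0.0728), as were Gbp5 (0.0597 in both) and the 9930111J21Rik row (0.0623 and 0.0727), and the second Tgtp row with median centring (0.067). With the macrophage score 57 genes were called in all, against 507, and 0 other family genes (5), 1 interferon-gamma list gene (3) and 8 type I list genes (17). With an array left out these counts were 159 to 708 genes, 1 to 5 family genes, 2 to 3 and 13 to 17. The interferon-gamma list count was 4 with the mean of all rows of a gene. Of all calls 201 of 507 were higher, 230 of 460 with quantile normalization and 127 of 424 with median centring. Macrophage markers called, 1, were 10 with the block, 3 with array weights and 0 with quantile normalization, median centring and the trended prior. Over all genes tested, the deviations of same-numbered arrays from their group means had correlations of -0.02, -0.14 and 0.07. The labels state no pairing, and the main fit used none. A correlation over all genes cannot show whether some of them were paired. The macrophage markers were lowest in competent 3 among the competent arrays and in deficient 3 among the deficient arrays. Uncalled differences turned their sign for Irgq (0.067 with the macrophage score), Irgc1 (-0.033 without competent 2, up to 0.27 with an array left out) and the Gvin1 row shared with 4 other genes (-0.0069 without competent 1, up to 0.19 likewise). The causes were not tested.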
